A study of Rattus norvegicus with 2 samples.

Results

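The genes described here regulate apoptosis and related forms of cell death. A fixed list of 34 genes was looked up by gene symbol in the array's annotation. All 34 had at least 1 probe, 50 probes in all, of the 44290 probes on the array. On the array that set tickled against unstimulated rats, 30 of the 34 had a value, among 11881 genes with one. On the array that set tickled against lightly touched rats, 31 had a value, among 11745 genes. The list was split by textbook role into 10 survival genes and 24 death genes.

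RNA came from the hypothalamus of male Wistar rats that entered the study at 21 days of age, just weaned, and lived alone in screened cages. Tickling imitates the rough play of young rats and draws ultrasonic calls, light touch served as a contrasting stimulation, and the remaining rats received no stimulus. Rats were stimulated once every weekday for 4 weeks, in 2 daily sets of 4 cycles that each paired 15 s of rest with 15 s of stimulation. The labels state 4 animals in each condition; whether their RNA was pooled is not stated. Tickled RNA carried Cy5 on both 2-colour arrays, and Cy3 marked the unstimulated RNA on one array and the lightly touched RNA on the other.

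Each value is the ratio of the dyes as deposited. Its median over probes was 1 on both arrays, so the ratios were already centred, on a linear scale. The numerator is not stated. Since tickled RNA carried Cy5 on each array and red over green is customary, tickled over control is the likely reading and is used below; with the opposite reading every value above 1 becomes one below 1. There was 1 array per comparison and no dye swap, so no test between conditions was possible and no p-value is given. The error that can be measured is the spread among probes for 1 gene within an array, 0.18 log2 units on both arrays (SD, over 4354 and 4226 genes with several valued probes), which is 1.13-fold and leaves out variation between animals. Over all genes the SD was 0.20 log2 units against no stimulus and 0.22 against light touch. In whole tissue, fewer cells of a type and less RNA per cell cannot be told apart. Of 11 marker genes of hypothalamic neurons, such as Pomc and Avp, 11 had a value against no stimulus and 10 against light touch; a ratio does not give their level, so the tissue label could not be checked further. Their ratios were mixed against no stimulus, from 0.508 for Avp to 1.62 for Pomc, with 6 above 1 and 5 below and a median of 1.03. Against light touch all 10 lay above 1, from 1.11 to 2.13, with a median of 1.59. The part of such differences between the tissue samples in the values below was not tested.

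Apoptosis is the orderly self-destruction of a cell by caspases, proteases that cut a set of cellular proteins. In the mitochondrial pathway, BH3-only proteins sense damage and release the pore formers Bax and Bak1 from guardians of the BCL2 family. The pores let cytochrome c into the cytosol, where it joins Apaf1 to switch on caspase-9. In the extrinsic pathway, surface receptors such as Fas recruit Fadd and caspase-8, and Ripk3 carries the signal to necroptosis, a lytic form of death, when caspase-8 is blocked. Developing brain uses apoptosis to remove surplus neurons, whereas mature neurons resist it, with Bcl2l1 (BCL-XL) as a major guardian.

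As a group these genes lay close to 1, as most genes did. On the no-stimulus array the median ratio of the 30 measured members was 1.01, the same as the median of all genes, and 25 of the 30 (83.3%) lay within 1.2-fold of 1, against 87.7% of all genes. On the light-touch array the median of 31 members was 0.98, against 1.01 for all genes, and 27 members (87.1%) lay within 1.2-fold, against 86.2% of all genes. The members that stood out were Birc5, high on both arrays, and Ripk3, low on the no-stimulus array and high on the light-touch array.

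Counted by size, 4 members had a ratio of 1.2 or more on the no-stimulus array, which is 13.3% of those measured, against 8.38% of all genes. They were Birc5, Casp6, Tnfrsf1a and Cflar. In the other direction, Ripk3 was the 1 member (3.33%) at or below 1 over 1.2, against 3.91% of all genes. On the light-touch array 2 members, Birc5 and Ripk3, were at 1.2 or more (6.45%), against 7.61% of all genes, and 2, Casp12 and Casp8, were at or below 1 over 1.2 (6.45%), against 6.14%. At 1.5-fold, Birc5 passed on the no-stimulus array, which is 3.33% of the members measured, against 1.62% of all genes, and Birc5 and Ripk3 passed on the light-touch array (6.45%), against 1.57%. In the low direction 0 members passed 1.5-fold on either array, against 0.362% and 0.928% of all genes. At 2-fold 0 members passed in either direction on either array, against 0.32% high and 0.101% low on the no-stimulus array and 0.349% high and 0.221% low on the light-touch array. These shares rest on at most 4 genes each.

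**Figure D1:**
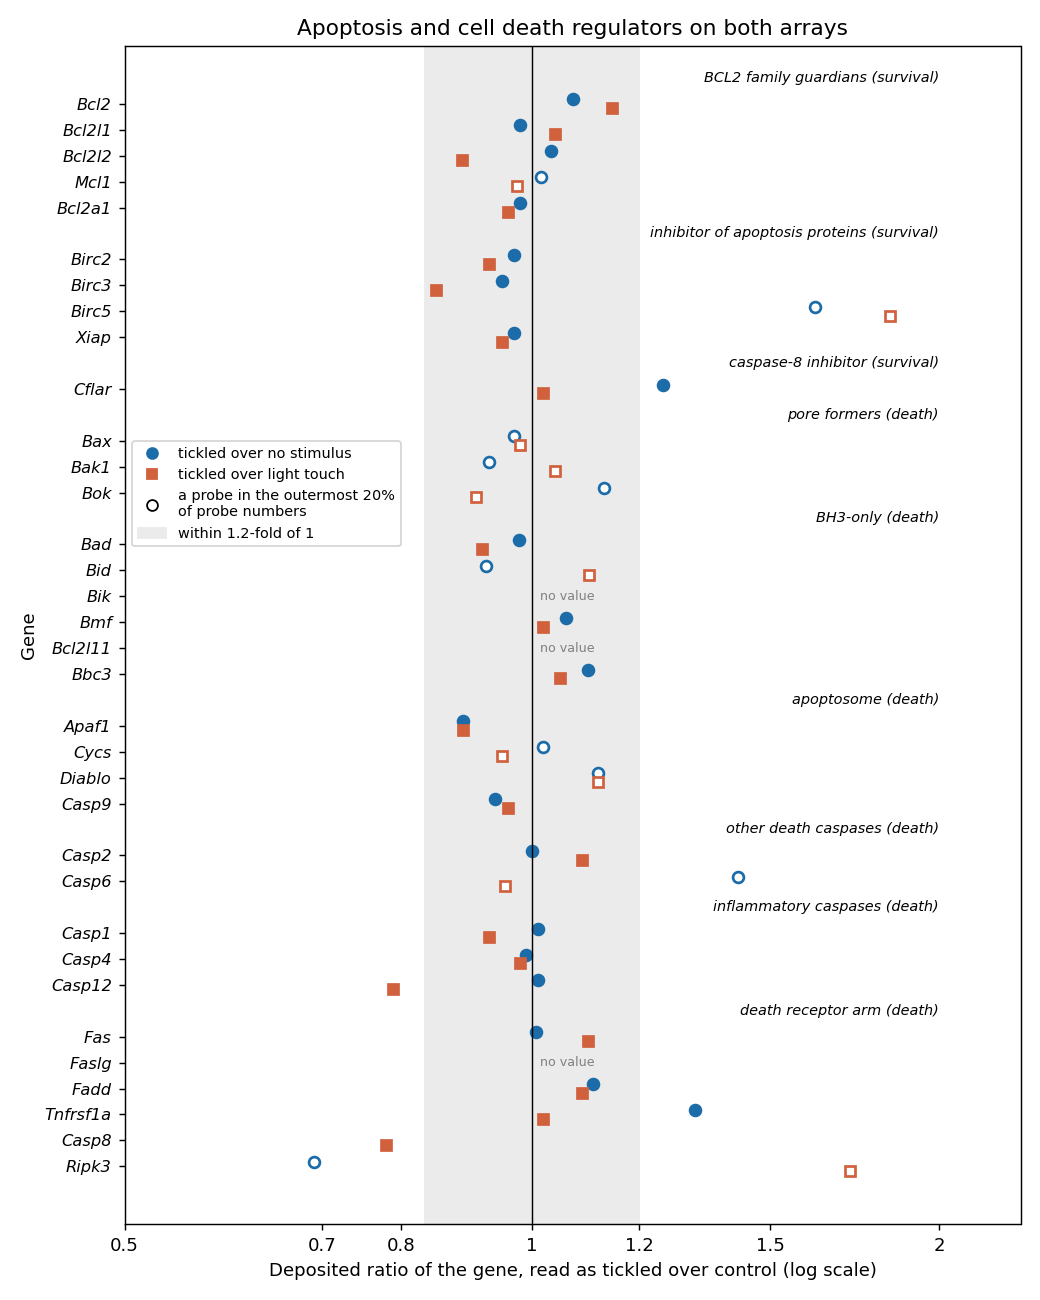
Deposited ratio of each gene (horizontal, log scale) by role, circles for tickled over no stimulus and squares for tickled over light touch. Open symbols mark genes with a probe in the outermost 20% of probe numbers and the grey band covers 1.2-fold around 1; Birc5 lies at 1.62 and 1.84, Ripk3 at 0.69 and 1.72, and most other genes lie in the band.

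Survival and death genes had medians close to each other on each array. The 10 survival genes had a median ratio of 0.998 on the no-stimulus array, with 5 above 1 and 5 below, while the 20 measured death genes had 1.01, with 11 above and 8 below. Against light touch the survival median was 0.967, with 4 above and 6 below, and the median of 21 death genes was 0.98, with 10 above and 11 below. The survival median minus the death median was -0.016 log2 units against no stimulus and -0.019 against light touch.

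**Figure D2:**
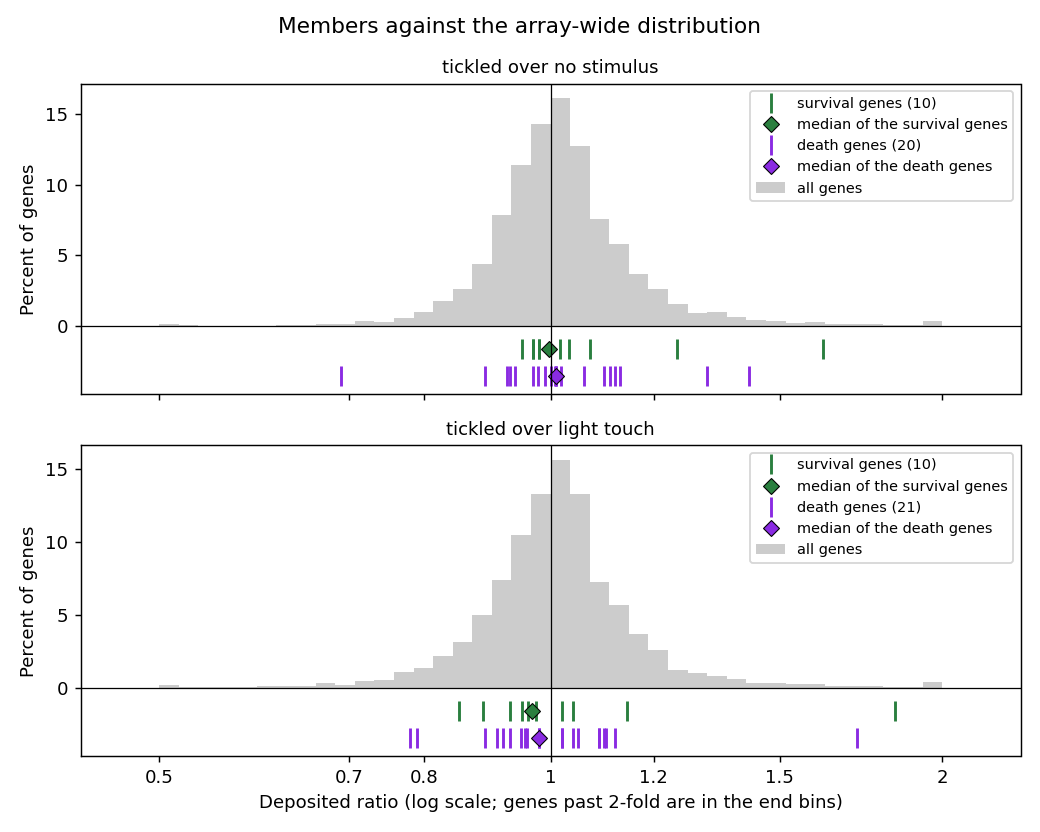
Percent of all genes (vertical) by deposited ratio (horizontal, log scale) on each array, with every survival gene and death gene as a tick below and their medians as diamonds. The medians, between 0.967 and 1.01, sit in the middle of the distribution of all genes, and the ticks farthest out are Birc5 at 1.62 and 1.84 and Ripk3 at 0.69 and 1.72.

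Among the BCL2 family guardians, which hold Bax and Bak1 in check, all 5 genes stayed within 1.2-fold of 1 on both arrays. Bcl2, the founding member, had a ratio of 1.07 against no stimulus and 1.15 against light touch, the highest guardian on each array. Bcl2l1, the guardian most tied to adult neurons, had 0.98 and 1.04. Mcl1, a short-lived guardian that many cells need day to day, had 1.02 and 0.974. Apart from the 1.15 of Bcl2, which is 0.20 log2 units from 1, each of these values lay within the probe spread of 1. Bcl2l2 (BCL-W) had 1.03 against no stimulus and 0.888 against light touch, and Bcl2a1, known mainly from blood and immune cells, had 0.98 and 0.96. The ratio of Bcl2 over that of Bax, a common index of the balance between survival and death, was 1.11 against no stimulus and 1.17 against light touch. For Bcl2l1 over Bax the index was 1.01 and 1.06. None of these indices departed from 1 by more than 1.2-fold.

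The inhibitor of apoptosis proteins carry BIR domains, and some of them bind caspases or tag signalling proteins with ubiquitin. Xiap, the direct inhibitor of caspases, had a ratio of 0.97 against no stimulus and 0.95 against light touch. Birc2 (cIAP1), a ubiquitin ligase at tumour necrosis factor receptors, had 0.97 and 0.93, and its relative Birc3 (cIAP2) had 0.95 and 0.85. The values of these 3 genes ran over 0.85 to 0.97, and none reached 1.2-fold.

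Birc5 encodes survivin, which works mainly in cell division, as a part of the chromosomal passenger complex that guides chromosomes and cytokinesis. Its ratio was 1.62 against no stimulus, where 116 of 11881 genes were as high or higher, and 1.84 against light touch, where 57 of 11745 were. On each array it was the highest member. Both values come from the same single probe, so no second probe could check them, and the arrays may share the tickled RNA. Tickled RNA also carried Cy5 on both arrays. An effect of the dye on this probe therefore cannot be told apart from one of tickling. Markers of dividing cells had a median ratio of 1.01 on both arrays, over 7 measured genes of 8 on the no-stimulus array (4 above 1 and 2 below, 0.954 to 1.24) and 6 on the light-touch array (3 above and 2 below, 0.97 to 1.27). The highest of them was the topoisomerase gene Top2a, at 1.24 and 1.27. Aurkb, the kinase of survivin's own complex, had 1.08 and 0.97, Cdk1 had 1.01 and 1.02, and Mki67 had no value. Birc5 lay above every measured dividing-cell marker on both arrays, but it was singled out as the highest member, which made that likely. The part of dividing cells in its value was not tested.

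Cflar (c-FLIP) resembles caspase-8 without its protease activity and blocks it at death receptors. Its ratio was 1.25 against no stimulus, where 698 genes were as high or higher, and 1.02 against light touch. It had 1 probe. The first value lay beyond the probe spread of 1 and the second did not.

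On the death side, the pore formers stayed close to 1. Bax had a ratio of 0.97 against no stimulus and 0.98 against light touch. Bak1, its partner in the outer mitochondrial membrane, had 0.93 and 1.04. Bok, a relative found mostly at the endoplasmic reticulum, had 1.13 and 0.91. All 3 were measured by 1 probe each, in the outermost 20% of probe numbers, and none reached 1.2-fold.

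Of the 6 BH3-only genes, the damage sensors of the pathway, 4 had values. Bad, which growth factor signalling keeps inactive, had a ratio of 0.978 against no stimulus and 0.919 against light touch. Bid, which caspase-8 cuts to link the extrinsic to the mitochondrial pathway, had 0.925 and 1.10. Bmf, tied to the cytoskeleton, had 1.06 and 1.02. Bbc3 (PUMA), a target of p53, had 1.10 and 1.05. These values spread about 1 with no common direction. Bik and Bcl2l11 (BIM) had no value on either array, so nothing can be said of them.

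The genes that act downstream of the pore were also near 1. Apaf1, the scaffold of the apoptosome, had a ratio of 0.89 on both arrays, the lowest of this group. Cycs, cytochrome c, which also serves the respiratory chain, had 1.02 against no stimulus and 0.95 against light touch over 4 probes. Diablo (SMAC), which leaves mitochondria with cytochrome c and displaces inhibitors of apoptosis proteins, had 1.12 on both arrays. Casp9, the initiator caspase that the apoptosome activates, had 0.939 against no stimulus and 0.96 against light touch. None of the 4 reached 1.2-fold on either array.

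Casp2, an initiator caspase linked to DNA damage, had a ratio of 1 against no stimulus and 1.09 against light touch. Casp6, an executioner that cuts nuclear lamins and takes part in axon breakdown in mice, had a gene value of 1.42 against no stimulus and 0.955 against light touch. Those gene values do not rest on the same probes. One Casp6 probe gave 1.42 and 1.17 on the arrays, and the other gave 0.78 against light touch and had no value against no stimulus. The gap between the gene values is therefore partly one between probes.

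The caspases of the inflammatory group process cytokines or open membrane pores in place of classical apoptosis. Casp1, the caspase of inflammasomes, had a ratio of 1.01 against no stimulus and 0.93 against light touch. Casp4, called Casp11 in older rat nomenclature, had 0.99 and 0.98. Casp12, located at the endoplasmic reticulum, had 1.01 and 0.79, and 449 of 11745 genes were as low or lower on the light-touch array. Markers of microglia and macrophages, cells rich in Casp1, had a median of 1.01 on both arrays over 9 genes, with ranges of 0.935 to 1.17 and 0.894 to 1.22.

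The death receptor arm carries signals from the cell surface. Fas, a death receptor, had a ratio of 1.01 against no stimulus and 1.10 against light touch, and Fadd, its adaptor, had 1.11 and 1.09. The ligand Faslg had no value on either array. Tnfrsf1a, the main receptor for tumour necrosis factor, had a gene value of 1.32 against no stimulus and 1.02 against light touch. Here too the probes differed. A probe valued on both arrays gave 1.11 and 1.02, and a second probe gave 1.57 against no stimulus and had no value against light touch. Casp8, the initiator caspase of this arm, had no value against no stimulus and 0.78 against light touch, where 398 genes were as low or lower. On the same array all 6 oligodendrocyte markers lay below 1, between 0.86 and 0.907. So did 5 of 6 endothelial markers (1 above) and 5 of 8 neuron markers (2 above), while all 7 astrocyte markers lay above 1. The part of any of these cell types in the values of Casp8 and Casp12 was not tested.

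Ripk3, the kinase that starts necroptosis, was the member whose values differed most between the arrays. Its ratio was 0.69 against no stimulus, with 68 of 11881 genes as low or lower, and 1.72 against light touch, with 86 of 11745 as high or higher. Both come from 1 probe. On the no-stimulus array the step from Ripk3 up to the next lowest member, Apaf1, was 0.37 log2 units, and on the light-touch array the step from Ripk3 down to the next highest, Bcl2, was 0.59. Both steps exceeded the probe spread. If the tickled RNA was the same on both arrays, which is not stated, light touch over no stimulus for Ripk3 would be -1.32 log2 units, a ratio of 0.401. On the same basis 24 of the 30 members with both values (80%) lay within 1.2-fold, against 86.2% of 11534 genes.

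In order of size, most neighbours lay within the probe spread of each other. That spread is for single probes and a difference has a larger error, so a step beyond it does not by itself tell genes apart. On the no-stimulus array the 28 members between Birc5 and Ripk3 followed one another in steps no larger than the probe spread of 0.18 log2 units, from Casp6 at 1.42 to Apaf1 at 0.89. On the light-touch array the same held below Ripk3, from Bcl2 at 1.15 to Casp8 at 0.78, and the top pair, Birc5 and Ripk3, lay within the spread of each other. Without Birc5 and Ripk3 the SD over members was 0.15 log2 units against no stimulus, where it was 0.22 with them, and 0.14 against light touch, where it was 0.26 with them. These genes were left out as the most extreme members, so a fall in the SD was certain.

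The probes of Birc5 and Ripk3, and the Casp6 probe with the higher ratio, lie in the first part of the probe numbering. Of 44290 probes they are number 3441 (Birc5), 4341 (Ripk3) and 288 (Casp6). The first and last 10% of numbers, called outermost here, held 19.2% of valued probes on the no-stimulus array but 51.5% of its 635 probes at 1.5 or higher. For the light-touch array these shares were 19.3% and 53% of 585 probes. Low ratios were scarcer there, with 4.73% and 11.1% of the 148 and 279 probes at or below 1 over 1.5. Among genes with 1 valued probe, 5.16% of those with an outermost probe reached 1.5 against no stimulus, against 1.66% of those with a middle probe, and the shares were 5.82% and 1.47% against light touch. These shares pool all outermost probes, and Ripk3 lay close to their inner edge. Of the 50 valued probes nearest Birc5, 2 reached 1.5 against no stimulus and 1 against light touch. Nearest Ripk3 these counts were 1 and 5, and nearest the Casp6 probe 9 and 4.

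The member probes divided as follows. Their 10 outermost probes ranged over 0.69 to 1.62 on the no-stimulus array, against 0.89 to 1.57 for the 33 middle ones, and over 0.91 to 1.84 on the light-touch array, against 0.78 to 1.36 for 34 middle ones. The lowest member probe against no stimulus, that of Ripk3, was thus an outermost one. Past 1.2-fold in either direction were 3 of 10 outermost and 2 of 33 middle probes on the no-stimulus array. On the light-touch array 2 of 10 outermost and 6 of 34 middle probes were. The matching shares over all probes are not given here, so nothing is concluded from these counts. The 50 valued probes nearest in number to that of Birc5 had a median ratio of 1.04 against no stimulus, and 1 of them was as high as Birc5; against light touch the median was 1.02 and 0 were. Around the Ripk3 probe all 50 neighbours lay above its 0.69 on the no-stimulus array, the lowest at 0.90, and 4 were at or above its 1.72 on the light-touch array. With the running median of neighbouring probes removed, Birc5 had 1.56 and 1.80 and Ripk3 0.677 and 1.69. Birc5 and Ripk3 lay apart from most of their neighbours, but they were singled out as the most extreme members. That choice made such a gap likely, so nothing is concluded from it. The Casp6 probe lay less far from its neighbours. Of its 50 neighbours, 10 were at or above its 1.42 against no stimulus (median 1.11), and 12 at or above its 1.17 against light touch (median 1.06). The part of probe position in the values of these genes was not tested.

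**Figure D3:**
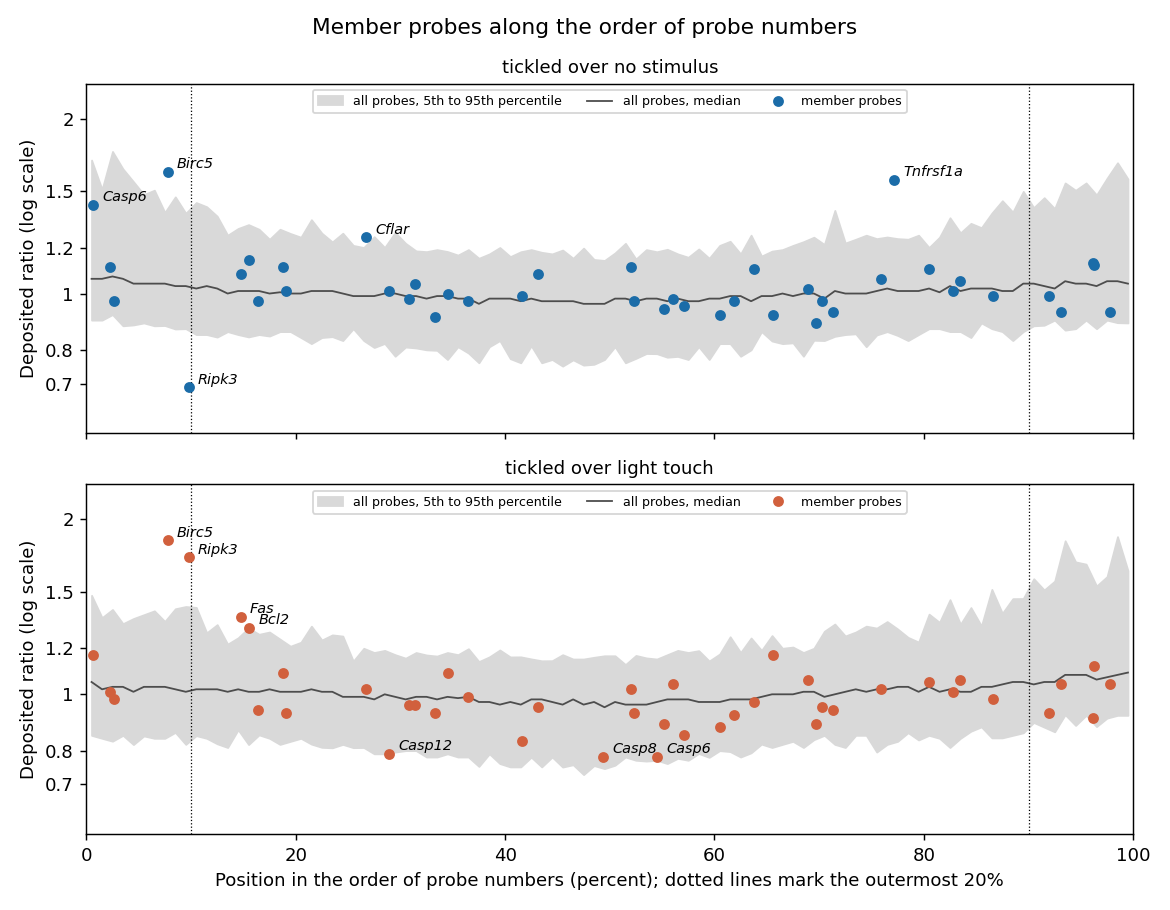
Deposited ratio (vertical, log scale) of the member probes against their position in the order of probe numbers (horizontal, percent), over the median and the 5th to 95th percentile of all probes. The band widens upward at both ends; Birc5 (1.62 and 1.84) lies above it on both arrays, while Ripk3 (0.69 and 1.72) lies below it on the upper panel and above it on the lower one.

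Members with several probes showed how far a single value can be trusted. On each array 10 of the 11 such genes had at least 2 valued probes. The probes of a gene lay on both sides of 1 in 6 of the 10 genes on the no-stimulus array and in 5 on the light-touch array. The matching share over all genes is not given here, so these counts are not read as particular to the members. The highest probe exceeded the lowest by 1.01-fold (Bid) to 1.41-fold (Tnfrsf1a) on the no-stimulus array, and by 1.06-fold (Casp9) to 1.53-fold (Fas) on the light-touch array. The pooled SD between probes of a member was 0.14 log2 units against no stimulus and 0.20 against light touch, near the 0.18 of all genes. Bcl2 gave 1.14 and 1.01 against no stimulus and 1.30 and 1.01 against light touch, so its lead among the guardians came from 1 of its 2 probes. Fas gave 1.08 and 0.94 against no stimulus and 1.36 and 0.89 against light touch. No member with several valued probes had all of them past 1.2-fold on one side.

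**Figure D4:**
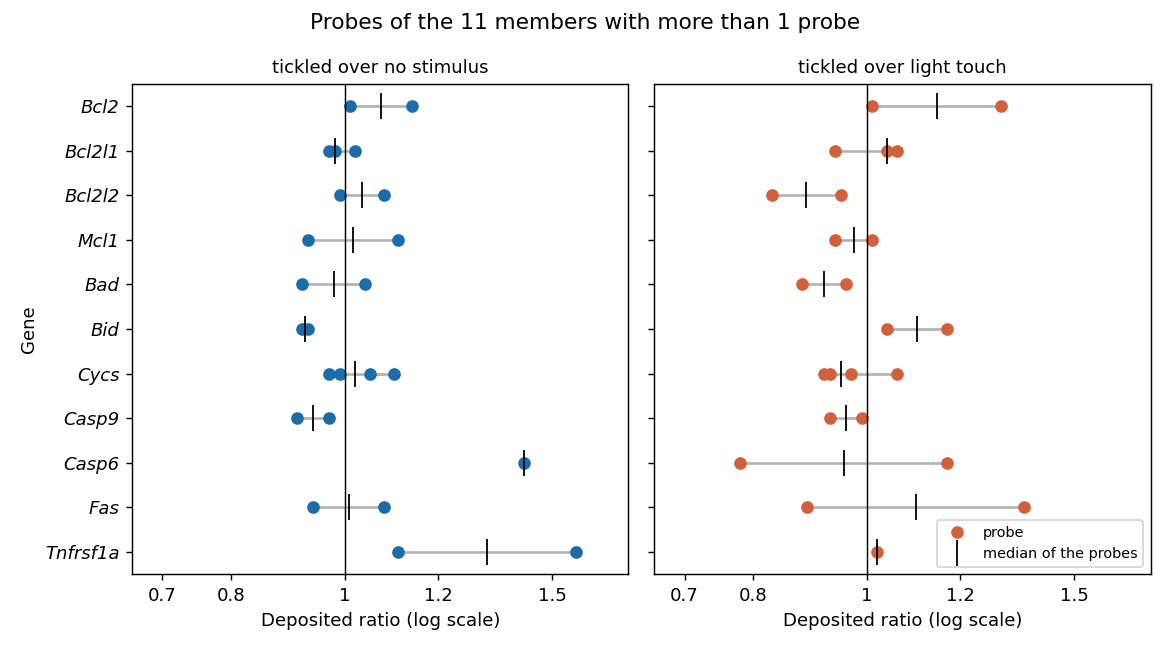
Ratio of every valued probe (horizontal, log scale) of the 11 members with more than 1 probe, with a bar at the median, for each array. Probes of the same gene differ by up to 1.41-fold on the no-stimulus array and 1.53-fold on the light-touch array, and many straddle 1.

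Probes without a value were fewer among the members than elsewhere. On the no-stimulus array 7 of 50 member probes (14%) were empty, against 21.9% of all probes with 1 gene symbol, and on the light-touch array 6 (12%) were, against 23.4%. Bik, Bcl2l11 and Faslg, each with 1 probe, were empty on both arrays, and why a probe was left empty is not stated.

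A second list held 62 other genes of the same pathways, of which 53 were found by symbol and 47 had a value on each array. Their median ratio was 0.995 against no stimulus, with 22 above 1 and 24 below, and 0.98 against light touch, with 20 above and 26 below. On the no-stimulus array 2 of the 47 (4.26%) were at 1.2 or more and 1 (2.13%) at or below 1 over 1.2, and on the light-touch array 2 and 2 were (4.26% each). At 1.2-fold these shares were below those of all genes given above, but they rest on at most 2 genes each. At 1.5 or more the shares were higher than those of all genes, but they too rest on at most 2 genes each. They were 1 of the 47 (2.13%) against no stimulus, where 1.62% of all genes passed, and 2 (4.26%) against light touch, where 1.57% did. The highest against no stimulus were Dffb, the nuclease that cuts DNA between nucleosomes in dying cells, at 2.0, Bag1, a partner of Bcl2 and of heat shock proteins, at 1.26, and Cidea, a lipid droplet protein related to Dffb, at 1.15. The lowest were Cideb at 0.83, interleukin 1 beta (Il1b) at 0.84 and granzyme B (Gzmb), a protease of killer lymphocytes, at 0.85.

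Against light touch the highest of that list were tumour necrosis factor (Tnf), the ligand of Tnfrsf1a, at 1.52, Dffb at 1.5 and Bag1 at 1.14, and the lowest were Cidea at 0.72, Gzmb at 0.83 and Cideb at 0.84. Tnf had no value against no stimulus and Il1b none against light touch. Dffb's inhibitor and chaperone Dffa had 1.11 and 1.05. Dffb, like Birc5 and Ripk3, had 1 probe, in the outermost 20% of probe numbers. Of lymphocyte and natural killer cell markers, the cells that carry Faslg and Gzmb, 2 of 8 had a value on either array, Cd4 at 0.98 and 0.92 and Nkg7 at 1.01 and 1.13.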

How the data were processed

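Hypothalamic RNA was measured on 2-colour arrays, 1 per comparison. Per the labels' protocols, 500 ng of total RNA was amplified to aminoallyl cRNA and coupled to Cy3 or Cy5. The authors deposited 1 linear ratio per probe and array, to 2 decimals and centred at a median of 1; the sources used here name no scanner, background correction, normalization, rule for empty probes or numerator. Signal levels were not used, so dim probes could not be removed, and the number of arrays limits the precision.

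The platform annotation gave 1 gene symbol for 23535 of the 44290 probes, several for 48, which named no gene, and none for 20707. The Entrez identifiers of all 34 genes were found in the RefSeq table of GRCr8, with the same symbol. Log2 ratios of a gene's probes were combined by their median (Python 3.11.15, pandas 2.3.3, numpy 2.4.6). The code was tested on simulated data.

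The genes and lists were chosen with earlier results of these data known. The genes named were all 34 members and, of the second list, the 3 highest and 3 lowest on each array and any past 1.5-fold; Dffa, Top2a, Aurkb, Cdk1, Mki67, Cd4 and Nkg7 were named besides. Marker lists covered 8 cell types or states. Alternatives were the mean of probes, probes valued on both arrays, the middle 80% of probe numbers, a running median over 501 probes removed, centring on all genes, and current symbols with synonyms.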

Additional observations from a re-analysis of the deposited data

How the results depend on the processing

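Of 84 list medians and counts recomputed under the alternatives, 77 held. A median held by moving less than its probe error (the probe SD over the root of the number of genes), a count by staying within 1.5 times. Of 291 recomputed gene values 288 moved by less than the probe SD, and 0 called values changed sign. Much of this agreement was fixed in advance, so these counts say little about robustness. The 23 members with 1 probe cannot move with the mean of probes, and with shared or middle probes they stay unchanged or drop out. Centring shifted every gene by only 0.014 log2 units, and the current symbol was the same for all 34 members. With the middle 80% of probe numbers, which leaves 23 members against no stimulus and 25 against light touch and drops the probes of Birc5 and Ripk3, the members at 1.2 or more numbered 2 against no stimulus and 0 against light touch (6.62% and 5.85% of all genes under this setting), those at 1.5 or more 0 and 0 (1.15% and 0.992%), and those at or below 1 over 1.2 against no stimulus 0 (4.85% of all genes). With only probes valued on both arrays, 1 member lay at or below 1 over 1.2 against light touch (5.56% of all genes), the median log2 ratio of the death genes there was 0.029, and Tnfrsf1a had 0.15 against no stimulus. Casp6 had 0.23 against light touch with those probes and -0.36 with the middle 80%. A list median near 0 could change sign with the centring: on the no-stimulus array that of the members was 0.013, and -0.0017 after centring on all genes. The indirect difference of Casp6 was 0.28 on shared probes, against 0.57 otherwise. No paired analysis was possible because each comparison has 1 array, and for the same reason no array could be left out. If the ratio was formed as control over tickled, all high and low counts trade places.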

Other observations

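Beside the hypothalamic markers, whose median was 1.03 against no stimulus and 1.59 against light touch, markers of other cell types had these ratios on the same arrays. Astrocyte markers lay above 1 in 7 of 7 genes on both arrays, with medians of 1.06 against no stimulus and 1.07 against light touch. Neuron markers had medians of 0.987 and 0.959 over 8 genes. Endothelial markers had 1.08 over 6 genes on the no-stimulus array, 5 of them above 1, and 0.962 on the light-touch array, 5 of them below 1. Oligodendrocyte markers had 1.02 on the no-stimulus array, with 5 of 6 above 1, and 0.89 on the light-touch array. Markers of microglia and macrophages and of dividing cells, given above, had medians of 1.01 on both arrays. The cell death genes had medians of 1.01 over 30 genes and 0.98 over 31, within the range of these marker medians on each array.

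The inflammasome sensor Nlrp3, named after its values were seen, had 10 valued probes on the no-stimulus array, and they ran over 0.67 to 1.67 around a gene value of 0.995. The outermost pair at the low end of the probe numbers gave 1.67 and 1.44. On the light-touch array 6 probes ran over 0.81 to 1.32. Bag1 ran over 0.86 to 1.82 with 3 probes on the no-stimulus array and gave 0.92 and 1.41 on the light-touch array. On the no-stimulus array the highest probe of Nlrp3 and that of Bag1 thus lay above Birc5, at 1.62.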
